A study of Mus musculus with 4 samples.

Results

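The cells described here are the epithelial cells of the mouse otic vesicle that carry transcripts of the homeobox genes Otx1 and Otx2. They were chosen by raw unique molecular identifier (UMI) counts, each UMI standing for 1 captured transcript. A cell had to have at least 1000 detected genes and at most 10% of its UMIs in mitochondrial genes. It then had to have at least 1 Epcam UMI, at least 3 UMIs summed over Hmx2, Hmx3, Lmx1a and Oc90, no Trp63 UMI and at most 2 Neurod1 UMIs, which is called the otic gate below. Within that gate, a cell with at least 2 Otx1 and Otx2 UMIs together was taken as Otx-positive. Of 14985 cells in 4 libraries, 5278 lay in the otic gate and 685 of these were Otx-positive, with 315 in control 1, 321 in control 2, 21 in cKO 1 and 28 in cKO 2.

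Both genotypes carried the Pax2-Cre transgene, which recombines in the otic lineage and in neighbouring tissue, and a Rosa26 allele that turns on GFP in recombined cells. The 2 control libraries came from Pax2-Cre;Rosa26-GFPf/+ embryos. The 2 conditional knockout (cKO) libraries came from embryos that carried Tbx2f/f and Tbx3f/f beside Pax2-Cre and Rosa26-GFPf/+, in which Cre removes the floxed parts of Tbx2 and Tbx3 from the recombined cells. The embryos were Swiss-Webster mice at E10.5 with 34 to 36 somites. The otic vesicle, the cochleovestibular ganglion and adjoining tissue of 3 control and 2 cKO embryos were pooled by genotype, sorted for GFP and for live cells, and profiled as single cells, and the labels do not say how embryos were divided among libraries. The p-values of comparisons between genotypes below therefore measure the spread between libraries. Those of comparisons between cell groups of the same libraries were fitted with the library as block. They measure how far the difference itself varied between libraries, and not the spread of levels between libraries. How much of either spread is technical is not known.

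The otic vesicle is the epithelial sac that gives rise to the whole inner ear, and its ventral wall is patterned apart from its dorsal wall by hedgehog, WNT, BMP and retinoic acid signals. Otx1 and Otx2 encode homeodomain transcription factors of the orthodenticle family and mark ventral and lateral otic wall, and Otx1 is known to be needed for the lateral semicircular canal and for normal shape of the cochlear duct. Tbx2 and Tbx3 encode T-box factors that mostly act as repressors.

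The libraries held 106769747 to 128205192 UMIs. Otx-positive cells had a median of 32818 UMIs in control 1 and 31918 in control 2, against 32513.5 and 30654.5 in the other otic-gate cells. In cKO the medians were 44598 and 45695 UMIs against 38910.5 and 36350. The median mitochondrial share of Otx-positive cells was 2.36% and 2.95% in control and 1.19% and 1.34% in cKO, so it moved with genotype, and its part in the genotype comparisons was not tested. Pairs of libraries shared 2 to 8 cell barcodes.

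The rule rests on Otx1 and Otx2, so their levels are a description. The level of a gene is given as its UMIs per 1000000 UMIs of the summed cells (CPM). Otx1 stood at 168 CPM in Otx-positive cells of control 1 and 157 CPM in those of control 2. Otx2 stood at 86.5 and 117 CPM in the same cells. Otx1 is on chromosome 11, 21994764 to 22002897, and Otx2 on chromosome 14, 48657677 to 48673819 (mm10, GENCODE vM21). The median Otx-positive control cell held 8 Otx UMIs in control 1 and 7 in control 2, and the highest held 100 and 55. Cells just outside the threshold, with 1 Otx UMI, were 65 and 62 in the control libraries, and cells just inside, with 2, were 38 and 35.

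Otx-positive cells made up 18.7% of otic-gate cells in control 1 (exact Clopper-Pearson 95% interval 16.9 to 20.6%) and 21.3% in control 2 (19.2 to 23.4%). They made up 2.72% in cKO 1 (1.69 to 4.13%) and 2.13% in cKO 2 (1.42 to 3.07%). These intervals cover counting error only. The mean share was 19.98% ± 1.82 (SD, n = 2) in control and 2.43% ± 0.418 in cKO, and the ranges did not overlap. The exact two-sided permutation test gave p = 0.3333, which is the smallest p that 2 libraries against 2 allow. Cells with 10 or more Otx UMIs numbered 119 and 113 in control, 37.8% and 35.2% of the Otx-positive cells, and 3 and 0 in cKO. Cells with exactly 1 Otx UMI were 3.86% and 4.11% of otic-gate cells in control and 4.54% and 3.50% in cKO. A lower share of cells and fewer Otx transcripts per cell cannot be told apart by a UMI threshold.

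**Figure D1:**
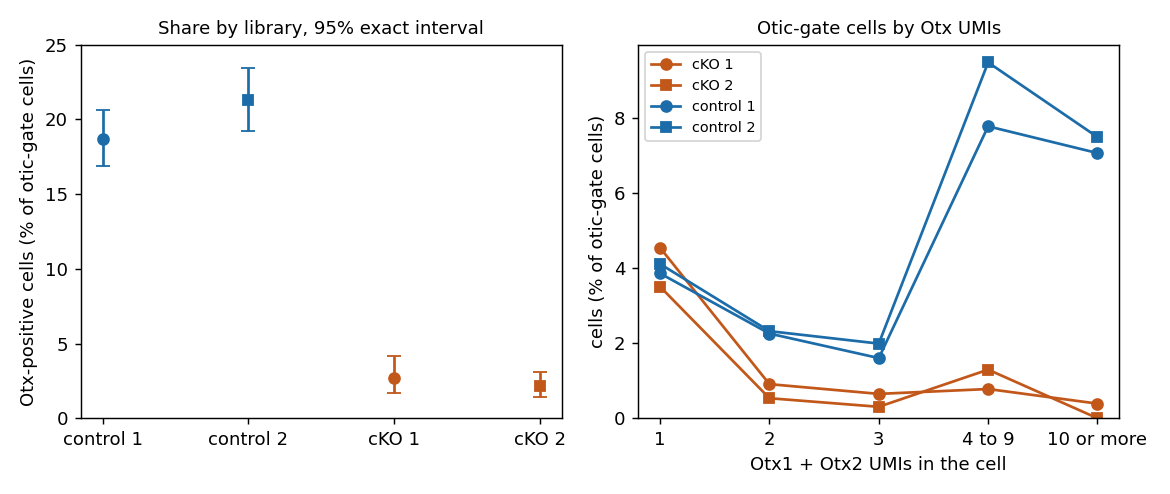
Left, Otx-positive cells as a percentage of otic-gate cells in each library, with exact 95% intervals; the control libraries sit at 18.7% and 21.3% and the cKO libraries at 2.72% and 2.13%. Right, the percentage of otic-gate cells with 1, 2, 3, 4 to 9 or 10 or more Otx1 and Otx2 UMIs; the libraries lie close together at 1 UMI and part from 2 UMIs upwards.

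Cells with at least 2 Otx UMIs also lay outside the gate, 114 and 73 in control and 42 and 29 in cKO, mostly for too few Hmx2, Hmx3, Lmx1a and Oc90 UMIs. The gate held 73.4% and 81.5% of such cells in control and 33.3% and 49.1% in cKO. The gate uses Oc90, whose level differed between genotypes. With Oc90 left out of the gate the mean share was 17.6% in control and 2.55% in cKO.

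The label of ventral otic epithelium was checked against otic and ventral genes. The pan-otic genes Pax2 (71.0 and 71.9 CPM) and Sox10 were present in the control members. Their difference from other otic-gate cells did not pass the test, with log2 changes of 0.07 and -0.01. Pax8, an otic marker gene also outside the gate, was called lower. The placodal gene Eya4, which acts with PAX factors in otic development, was higher by 1.11 on the log2 scale. The list of ventral otic patterning genes was not higher as a whole, with a median log2 change of 0.15 against 0.0027 over all genes tested. Of 12 genes tested, 6 were higher, Eya1, Ptch1, Gli1 and Gsc among them, and 5 lower, namely Lfng, Sox2, Gata3, Bmp7 and Fgf10. Of these, Gsc was named with these cells from earlier results. A small subset carried genes of another tissue. Of the Otx-positive cells, 6, 5, 3 and 1 (control 1, control 2, cKO 1, cKO 2) had at least 3 UMIs of Ttr, Rspo1 and Colec12 together, genes known from roof plate and choroid plexus. In control 1, 5 of the 6 had an Oc90 UMI, 4 a Pax2 UMI, 2 a Sox10 UMI and 1 an Hmx2 UMI, and the cell of cKO 2 had Hmx2, Hmx3 and Sox10. In control 2 and cKO 1 none of these cells had a UMI of Oc90, Hmx2, Hmx3, Pax2 or Sox10. In control 2 Msx1 stood at 335 CPM, Rspo3 at 273 CPM and Zic1 at 114 CPM in them, and Otx2 at 710 CPM against 107 CPM in the other Otx-positive cells of that library. All 15 were noticed after seeing the data, and results were also computed without them. In cKO 1 these 3 cells gave 137419 of the 974536 UMIs.

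Gsc, Six2 and Vmo1 were named with these cells from earlier results, so they describe the cells and are no independent evidence. Gsc encodes the homeodomain repressor goosecoid. A Gsc UMI was found in 48.3% of Otx-positive cells in control 1 and 52.6% in control 2, against 0.730% and 1.09% of the other otic-gate cells. With each cell thinned to 10000 UMIs the shares were 26.8% and 32.7% against 0.368% and 0.515%. Leukocytes of the same libraries, which should lack the gene, had a thinned Gsc UMI in 0 of 46 and 0 of 41 cells, with upper interval bounds of 7.71% and 8.60%. Mesenchymal cells had one in 0 of 99 and 11 of 133. The Gsc level was 37.0 and 49.5 CPM in Otx-positive cells and 0.400 and 1.27 CPM in the others. Six2, a homeobox gene best known from kidney progenitors, was at 88.0 and 114 CPM against 8.07 and 13.5 CPM. Vmo1, which encodes a secreted protein of the vitelline membrane outer layer family, was at 17.7 and 25.5 CPM against 0.379 and 0.259 CPM. Gsc lies on chromosome 12, 104471209 to 104473330, Six2 on chromosome 17, 85684277 to 85688274, and Vmo1 on chromosome 11, 70513516 to 70514616.

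The levels of these 3 genes went with the number of Otx UMIs in a cell. Gsc was at 0.155 and 0.516 CPM in control cells with no Otx UMI, at 34.1 and 40.4 CPM in cells with 4 to 9 and at 50.0 and 63.9 CPM in cells with 10 or more. Six2 was at 7.04 and 12.1, 72.6 and 84.8, and 121 and 175 CPM in the same groups. Oc90, the main otoconial matrix protein gene, did not follow this order. It was at 366 and 464 CPM with no Otx UMI, 708 and 1223 CPM with 4 to 9 and 414 and 601 CPM with 10 or more, so it was highest at intermediate Otx counts. Median UMIs per cell were 38777 and 35648 in the top group against 29825 and 31344 in cells with 4 to 9. Cells with more UMIs in all can reach more Otx UMIs, and the values are given as a description with no test.

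**Figure D2:**
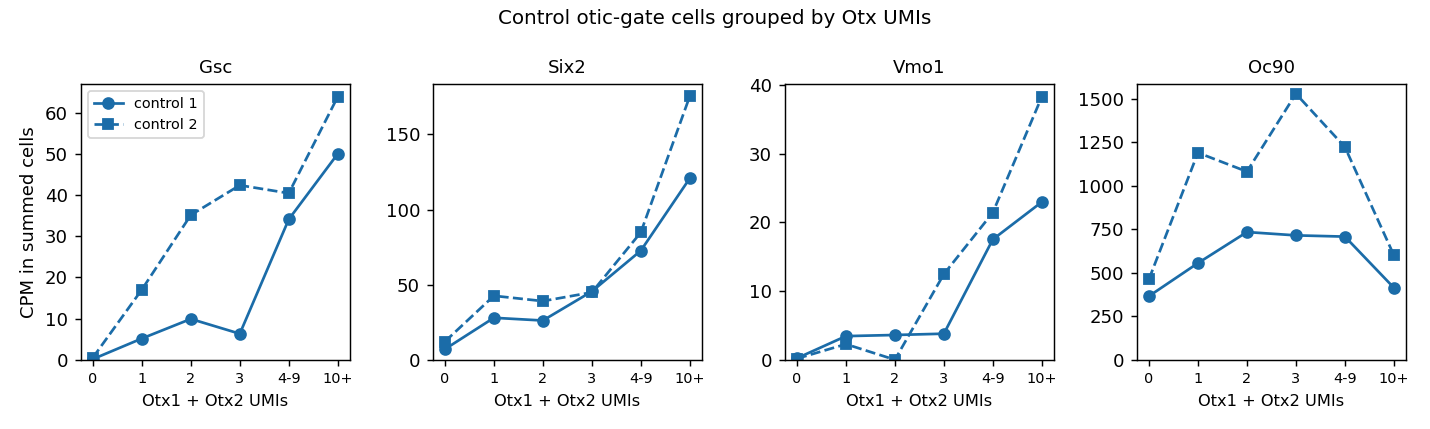
CPM of Gsc, Six2, Vmo1 and Oc90 (vertical axes) in summed control otic-gate cells grouped by their Otx1 and Otx2 UMIs (horizontal axes), 1 line per library. Gsc, Six2 and Vmo1 are highest in cells with 10 or more Otx UMIs, and Oc90 is highest between 1 and 9.

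In control, Otx-positive cells were compared with the other otic-gate cells of the same library, with edgeR's quasi-likelihood test on UMIs summed per library and cell group and Benjamini-Hochberg adjustment over all genes. Of 14103 genes outside the rule, 1336 were higher (9.47%) and 1678 lower (11.9%) in Otx-positive cells at an adjusted p under 0.05, and 330 and 658 of these differed by more than 2-fold. DESeq2 called 376 and 501. The genes with the largest increases included enzymes that break down retinoic acid, WNT pathway ligands and agonists, and several receptors. The 10 with the largest decreases were led by the kinase gene Mylk3 and the protease gene Prss56, and Wnt6, Gbx2 and the WNT target Sp5 were among them.

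Retinoic acid is made by ALDH1A enzymes and broken down by CYP26 enzymes, and it patterns the vesicle along the body axis. Cyp26a1 was at 49.2 and 44.0 CPM in Otx-positive cells and 2.36 and 2.78 CPM in the others (log2 change 4.17 ± 0.10 SE, adjusted p = 2.3e-39). Cyp26c1 was at 10.1 and 10.7 CPM against 0.421 and 0.363 CPM (4.59 ± 0.23). These enzymes are encoded by neighbouring genes on chromosome 19, with 4399 bases and no annotated gene between them. The synthesizing enzymes were lower: Aldh1a3 at 14.0 and 8.19 CPM against 30.0 and 39.7 CPM, Aldh1a2 at 3.62 and 3.26 against 13.1 and 17.1 CPM, and Aldh1a1 at 1.77 and 3.54 against 13.5 and 13.3 CPM. Rdh10, which makes the retinal that ALDH1A enzymes use, was at 5.83 and 7.82 CPM against 41.7 and 50.2 CPM (log2 change -2.75 ± 0.10). The binding protein gene Crabp2 was higher (0.39 ± 0.04) and Crabp1 lower (-2.64 ± 0.07). Of 16 genes of this pathway tested, 4 were higher, namely Cyp26a1, Cyp26c1, Crabp2 and the receptor gene Rarb, and 8 lower. The median log2 change was -0.56 against 0.0027 over all genes tested. Cyp26b1, the third CYP26 gene, was not called.

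Upstream sequence is shown for genes of this set because Otx1, Otx2 and Gsc proteins are known to bind TAATCC. The windows are the 250 bases before a RefSeq start site (GRCm38.p6), cut short where a GENCODE exon begins, written 5′ to 3′ on the gene's strand, with TAATCC in capitals. Vmo1 (chr11:70514617-70514866, minus strand) holds it 116 bases before the start site, Cyp26c1 (chr19:37685430-37685580, plus strand) 111 bases before, and Six2 (chr17:85688275-85688504, minus strand) does not hold it.
Vmo1: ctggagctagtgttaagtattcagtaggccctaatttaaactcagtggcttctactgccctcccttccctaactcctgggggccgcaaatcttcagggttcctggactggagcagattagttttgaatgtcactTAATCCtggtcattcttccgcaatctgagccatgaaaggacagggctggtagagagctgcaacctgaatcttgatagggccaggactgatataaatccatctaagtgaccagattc
Cyp26c1: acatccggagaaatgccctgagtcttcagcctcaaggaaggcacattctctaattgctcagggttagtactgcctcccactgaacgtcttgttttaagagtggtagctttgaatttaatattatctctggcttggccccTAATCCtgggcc
Six2: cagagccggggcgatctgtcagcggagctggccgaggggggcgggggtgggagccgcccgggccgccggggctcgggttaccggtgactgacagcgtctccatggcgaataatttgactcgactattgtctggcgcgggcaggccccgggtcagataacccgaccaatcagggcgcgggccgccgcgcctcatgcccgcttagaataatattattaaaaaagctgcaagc
Vmo1 and Cyp26c1 are shown because their windows hold the motif, so the sequences shown do not give its frequency. TAATCC or its complement GGATTA was present in 2 of the 4 matched marker genes, Otx2 and Vmo1. Of the 15 matched genes among the 20 largest increases it was in 1, Cyp26c1, and of the 10 largest decreases in 0. It was in 7.21% of all 27025 genes with such a window. The T-box motif AGGTGTGA was in none of these genes and in 1.30% of all genes, and the GLI core GACCACCCA in none and in 0.255%. A match is a description of the letters and not a binding site.

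WNT pathway genes moved both ways among ligands, R-spondins, their receptors and secreted antagonists. Wnt4, a secreted ligand, was at 39.7 and 63.3 CPM in Otx-positive cells and 4.21 and 4.43 CPM in the others (log2 change 3.53 ± 0.10, adjusted p = 5.5e-37). Rspo2, an R-spondin that strengthens WNT signals at the membrane, was at 20.6 and 24.4 CPM against 1.01 and 1.504 CPM (4.13 ± 0.14). Sfrp1, a secreted WNT binding protein, was at 323 and 305 CPM against 103 and 126 CPM (1.45 ± 0.05). The ligand Wnt6, in contrast, was at 2.74 and 2.79 CPM against 65.5 and 73.8 CPM (-4.64 ± 0.11), and Wnt2b, Wnt5a, Wnt7b and Rspo3 were also lower. The R-spondin receptor gene Lgr4 was higher and Lgr5 lower. Known transcriptional targets of the canonical pathway were lower: Sp5 at 1.94 and 1.58 CPM against 37.1 and 36.8 CPM, Lef1 at 6.89 and 7.36 against 39.8 and 36.7 CPM, and Axin2 at 11.6 and 12.01 against 31.5 and 33.7 CPM. The antagonist Dkk1 was lower as well (-3.77 ± 0.16). Of 26 WNT genes tested, 6 were higher and 15 lower (median log2 change -0.91).

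Dorsal otic patterning genes were mostly lower, with 11 of 13 lower and 1 higher, with a median log2 change of -1.5. Gbx2, a homeobox gene of the dorsal wall, was at 3.00 and 2.05 CPM against 55.5 and 58.3 CPM. Msx2 was at 3.36 and 2.42 CPM against 38.1 and 41.2 CPM, and Dlx5 at 44.8 and 47.5 CPM against 134 and 127 CPM. Rspo2 was the member that was higher, and Dlx3 was not called. Genes that mark other otic territories were lower in 9 of 11 cases, among them Mylk3 (0.265 and 0.186 CPM against 11.9 and 11.3 CPM), Sema3e and Slitrk6, while Rorb (1.02 ± 0.10) and Sfrp2 (0.38 ± 0.09) were higher. Some of these territory markers were named from earlier results of the same libraries.

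Hedgehog signalling reaches the vesicle from below and raises transcription of Ptch1, Gli1 and Hhip in responding cells. Ptch1, the hedgehog receptor, was at 40.3 and 41.5 CPM in Otx-positive cells and 27.4 and 31.3 CPM in the others (log2 change 0.48 ± 0.07, adjusted p = 9.7e-08). Gli1, a transcriptional effector, was at 8.92 and 6.98 CPM against 5.10 and 4.28 CPM (0.75 ± 0.15). Hhip, which encodes a membrane protein that binds the ligand, was at 4.86 and 6.15 CPM against 1.47 and 1.66 CPM (1.78 ± 0.22). Gli2, Gli3 and Sufu were also higher, Cdon, a co-receptor, was lower by 0.20 on the log2 scale, and Smo was not called. In all 6 of 12 genes were higher and 1 lower, with a median log2 change of 0.25.

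BMP ligands and their antagonists moved in both directions. Bmp5 was at 9.54 and 10.4 CPM against 2.17 and 2.98 CPM, and the antagonist Nog at 2.91 and 5.87 CPM against 0.590 and 0.363 CPM. Bmp4 was at 17.3 and 30.2 CPM against 53.3 and 46.9 CPM. Bmp2 had no UMI in the Otx-positive cells of either control library and was at 2.17 and 2.78 CPM in the others, at least 18-fold higher there against a floor of 3 UMIs in the group. Bambi, a decoy receptor, was lower (-1.96 ± 0.07). Of 22 BMP genes tested 3 were higher and 9 lower (median -0.11). Without the cells that held Ttr, Rspo1 and Colec12 UMIs, Bmp6 was no longer called and 2 were higher.

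**Figure D3:**
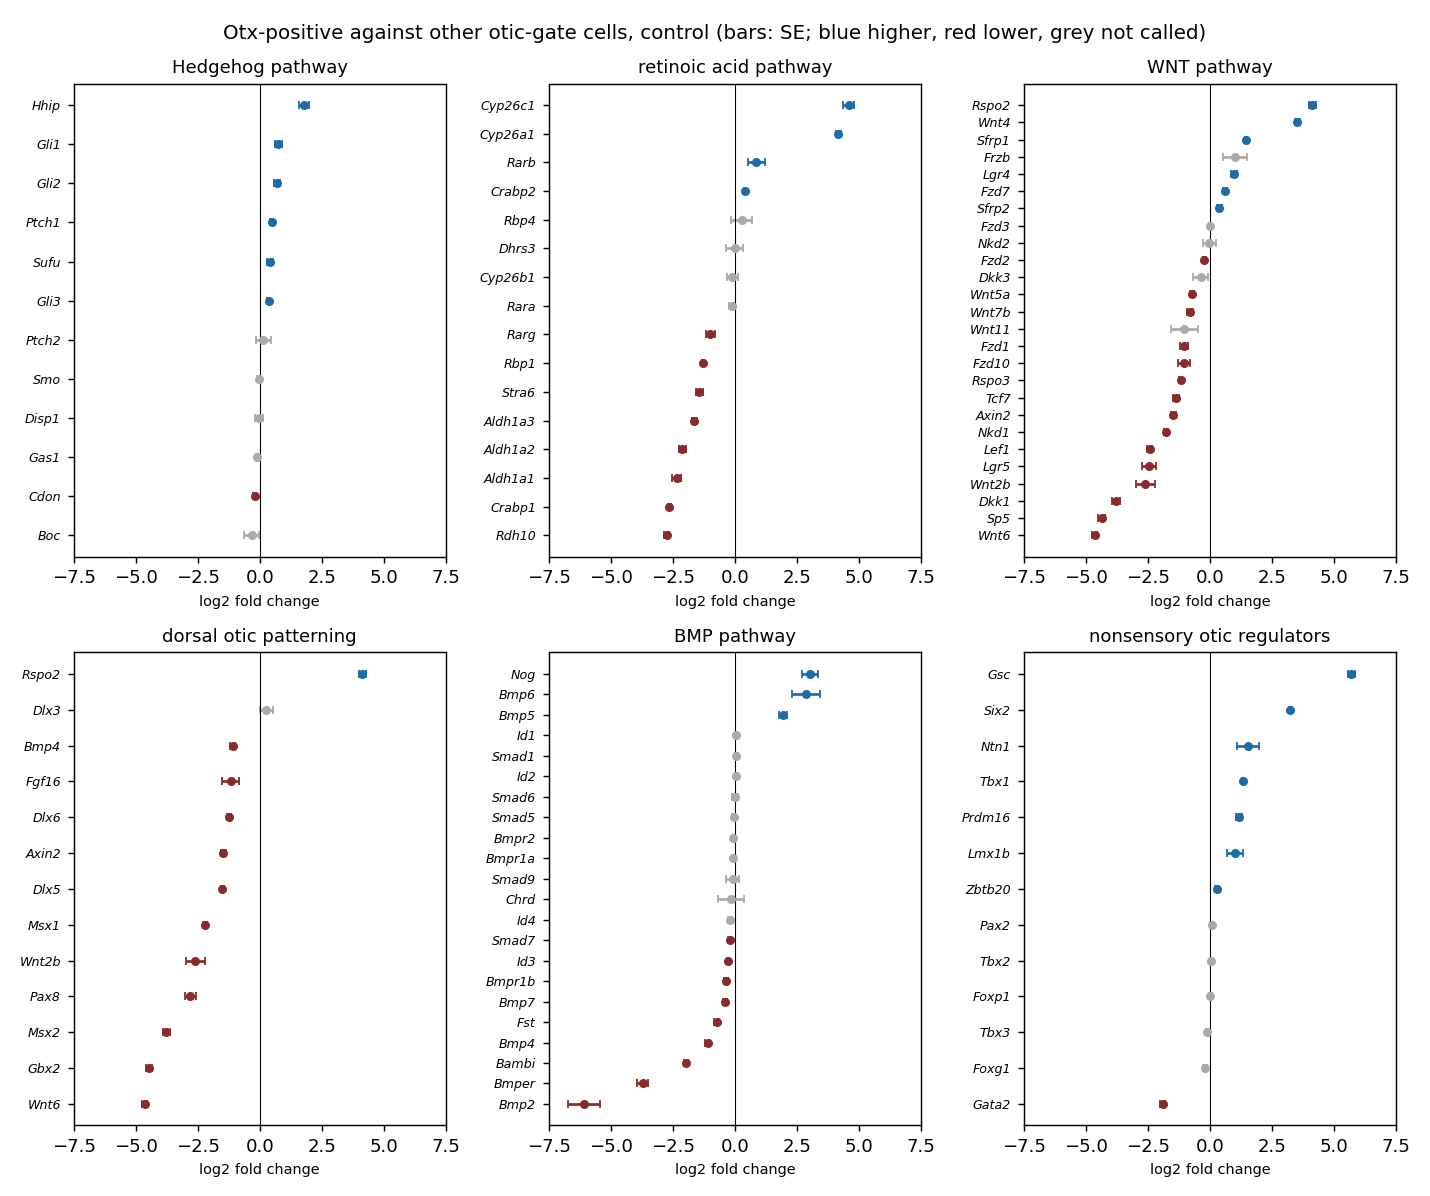
Log2 change (horizontal axes) of every tested gene of 6 lists, Otx-positive against other otic-gate cells in control, with standard errors; blue points are called higher, red points lower and grey points not called. Hedgehog targets lie right of 0, the retinoic acid list splits into CYP26 enzymes on the right and synthesizing enzymes on the left, and the dorsal list lies left of 0 except Rspo2 and Dlx3.

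Transcription factors of nonsensory ear and genes of sensory and neural fate were also examined. Tbx1, a T-box gene needed for otic growth, was at 184 and 196 CPM in Otx-positive cells and 73.6 and 77.1 CPM in the others (log2 change 1.33 ± 0.05, adjusted p = 2.8e-32). Tbx2 (95.3 and 98.5 against 89.3 and 98.6 CPM) and Tbx3 (67.8 and 63.9 against 73.1 and 69.4 CPM) were not called. Of 13 nonsensory regulators, 7 were higher, Prdm16 and Lmx1b among them, and Gata2 was lower at 6.45 and 6.15 CPM against 23.5 and 23.8 CPM. The 7 include Six2 and Gsc, which were named with these cells from earlier results, and 9.47% of all genes were higher. Without the cells that held Ttr, Rspo1 and Colec12 UMIs, Lmx1b was no longer called. Prosensory genes were higher in 5 and lower in 10 of 18 cases. Sox2, which marks prosensory epithelium, was at 58.9 and 47.8 CPM against 121 and 99.5 CPM, and Lfng at 8.83 and 6.33 CPM against 20.7 and 19.0 CPM, while the Notch-responsive Hey2 was at 19.7 and 12.3 CPM against 6.38 and 3.86 CPM. Of 18 neurogenic genes 7 were lower, including the proneural gene Neurog1 (0.618 and 2.05 CPM against 5.69 and 3.19 CPM), and 1 was higher, Dcx (19.96 and 18.3 against 2.70 and 6.22 CPM), which is best known from migrating neurons.

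FGF ligands differed by member. Fgf9 was higher at 59.4 and 68.0 CPM against 39.7 and 42.1 CPM. Fgf3, Fgf8 and Fgf10, ligands of otic induction and neurogenesis, were lower, with Fgf3 at 0.795 and 0.279 CPM against 9.82 and 5.91 CPM. Of 21 FGF genes 3 were higher and 6 lower, and without the cells that held Ttr, Rspo1 and Colec12 UMIs 6 were higher and 5 lower, with Spry1, Dusp6 and Il17rd added and Spred1 lost.

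Genes of the otolithic membranes and otoconia were higher in 4 and lower in 3 of 7 cases tested, apart from Oc90, which the gate used. Spp1 was at 166 and 129 CPM against 38.6 and 49.6 CPM, Sparcl1 at 34.9 and 32.2 CPM against 8.74 and 8.56 CPM, and Otogl at 6.71 and 8.94 CPM against 1.26 and 1.14 CPM. Otol1, Sparc and Otog were lower. In a list of junction genes that also held keratin genes, the keratins Krt8, Krt18 and Krt19 and Cldn10 were higher. Cldn3 and Cldn7 were lower, with 6 higher and 9 lower of the 21 listed genes tested. Of 29 axon guidance genes 8 were higher, led by Epha3 (16.8 and 23.2 against 1.56 and 2.18 CPM), and 13 lower, among them Nrp2 (2.30 and 2.24 against 23.7 and 32.1 CPM). Neurotrophic factors and receptors included Ntrk2, the BDNF receptor, at 21.5 and 19.9 CPM against 2.02 and 3.27 CPM, while Bdnf itself was not called.

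Other genes with large increases had no shared list. Capn6, a calpain-family gene without protease activity, was at 107 and 135 CPM against 7.71 and 10.7 CPM. Cnmd, the cartilage and tendon glycoprotein chondromodulin, was at 121 and 159 CPM against 19.4 and 27.0 CPM, and Crym, the thyroid hormone binding crystallin mu, at 108 and 143 CPM against 15.8 and 19.0 CPM. Ehbp1 was at 121 and 115 CPM against 9.69 and 10.1 CPM (log2 change 3.56 ± 0.07). Ehbp1 is the next annotated gene to Otx1 on the same strand of chromosome 11, with 2930 bases between them. Zfp385b, Scube1, Mecom, Rab15, Car13, Gnao1, Tnni1 and Ermn were also among the 20 largest increases, and their log2 changes lay between 2.40 (Tnni1) and 5.14 (Ermn). Ttr was at 14.9 and 319 CPM, and nearly all of its UMIs, 167 of 169 and 3417 of 3425, came from the 6 and 5 cells described above. Without those cells its log2 change was -0.63 (adjusted p = 0.396). The other 29 of the 30 genes kept their direction and call without those cells.

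**Figure D4:**
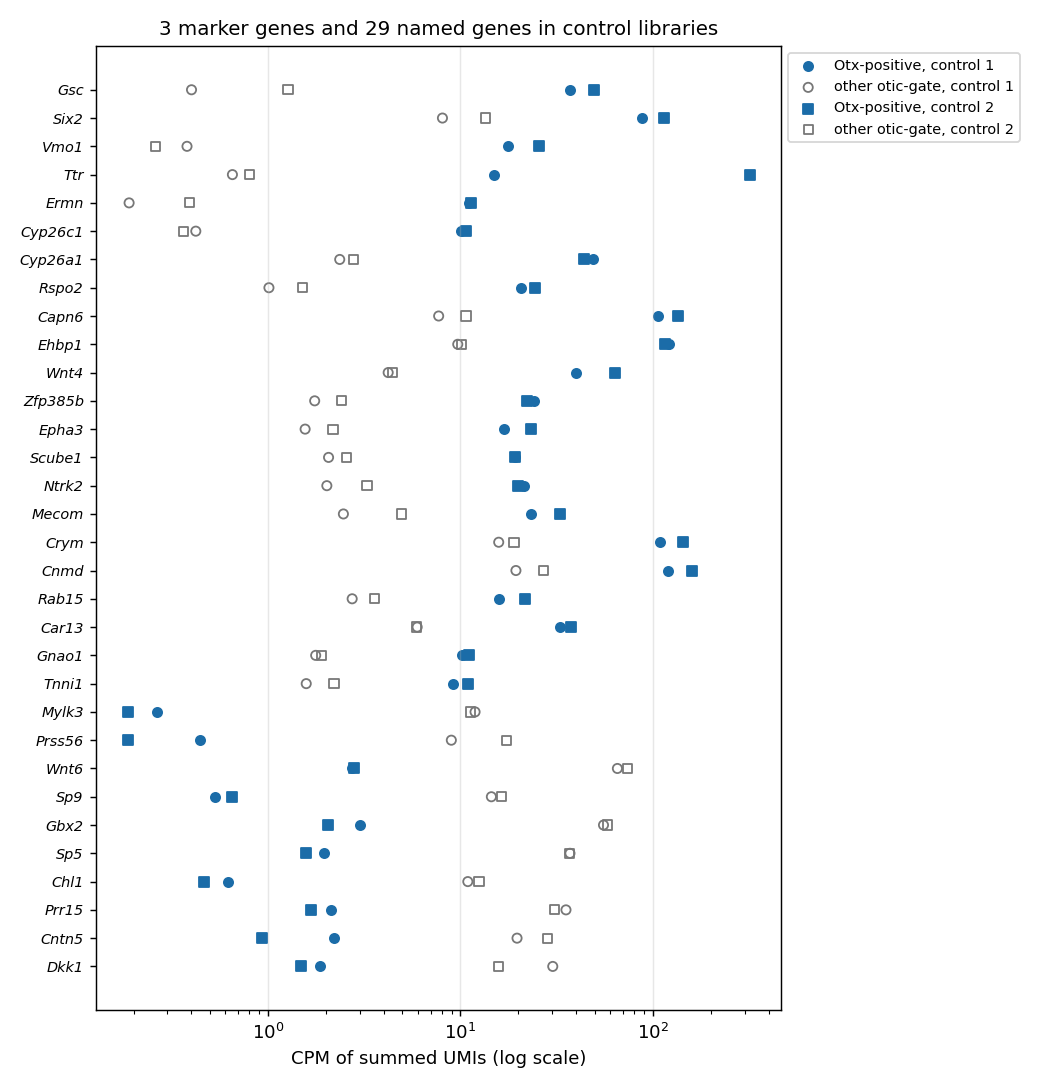
CPM on a log axis of Gsc, Six2, Vmo1 and of 19 of the 20 genes with the largest increases and the 10 with the largest decreases, in Otx-positive (filled) and other otic-gate cells (open) of control 1 (circles) and control 2 (squares). In each of these genes both filled points lie on the same side of both open points, and Ttr is the gene whose control libraries lie farthest apart.

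The summed level of 10 endothelial genes was 36.4 and 40.7 CPM against 55.8 and 51.1 CPM in other otic-gate cells, with 7 of 9 tested genes lower, and that of 10 placodal neuron genes was 75.7 and 69.7 against 110 and 148 CPM. Hindbrain neural tube genes summed to 9.54 and 14.2 CPM against 4.11 and 8.82 CPM, and Fabp7 and Zic1 were called higher. Without the 6 and 5 cells described above Zic1 was not called. Of 4 surface ectoderm genes tested 2 were higher and 1 lower (median log2 change 1.1). Of 8 neural crest and glia genes 3 were higher and 3 lower (0.165), and of 8 mesenchyme genes 1 was higher and 1 lower (0.303). These calls were the same with and without those cells. The median of 9 leukocyte genes was -0.145. The calls of 7 leukocyte genes, Tyrobp and Csf1r among them, changed when the 6 and 5 cells described above were left out. In that fit 7 of the 9 were lower and 1 higher. The 1 pharyngeal endoderm gene tested was lower (-1.01). The part of other cells in the remaining results was not tested.

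Cell cycle lists had small median changes, while 9.47% of all genes were higher and 11.9% lower. Of 18 G2 and M phase genes 7 were higher and 1 lower (median log2 change 0.10). Of 18 S phase genes 1 was higher and 2 lower (-0.07), and of 7 CDK inhibitor and G1 cyclin genes 4 were higher and 1 lower (0.10).

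Otx-positive cells varied among themselves. In control, 141 and 144 had Otx1 UMIs only, 12 and 10 Otx2 UMIs only, and 162 and 167 both. Cells with an Otx2 UMI were compared with those with Otx1 only, by the same test. Of 11484 genes, 315 were higher (2.74%) and 405 lower (3.53%) in the Otx2-detected cells, and DESeq2 called 39 and 65. Median UMIs were 33787.5 and 32527 in cells with both genes and 31524 and 31278.5 with Otx1 only. Gsc was at 50.1 and 69.0 CPM in Otx2-detected cells and 18.6 and 23.6 CPM in Otx1-only cells, and a Gsc UMI was found in 64.4% and 70.6% against 28.4% and 30.6% of cells. Vmo1 was at 24.7 and 40.3 against 7.84 and 5.86 CPM.

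The Otx1-only and Otx2-detected cells differed in patterning genes. Wnt4 (55.0 and 102 against 18.4 and 11.5 CPM) and Rspo2 (32.4 and 41.3 against 4.03 and 1.95 CPM, log2 change 3.54 ± 0.21, adjusted p = 7.4e-32) were higher in Otx2-detected cells. Bmp5 (1.21 and 1.47 against 21.2 and 22.3 CPM), Epha3 (3.03 and 3.75 against 36.02 and 49.0 CPM) and Plxna4, a semaphorin receptor, were lower there. Bmp5 and Epha3 were thus high in Otx1-only cells although both were also called in the comparison of all Otx-positive cells with the rest. Tbx3 was at 42.4 and 36.9 CPM in Otx2-detected and 103 and 99.8 CPM in Otx1-only cells (-1.35 ± 0.10, adjusted p = 6.0e-25), and Tbx1 at 134 and 125 against 254 and 291 CPM. Tbx2 was at 91.2 and 88.1 against 101 and 112 CPM and was not called (adjusted p = 0.0692).

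In the same split, 6 of 15 FGF genes were higher and none lower in Otx2-detected cells, including the FGF target genes Etv4 and Etv5 and the feedback inhibitor Spry1, with a median log2 change of 0.30 against -0.0004 for all genes. Of 18 BMP genes 1 was higher and 6 lower, among them Bmp4 (8.33 and 12.7 against 29.9 and 53.4 CPM) and the BMP-responsive Id1, Id2 and Id3. Without the cells that held Ttr, Rspo1 and Colec12 UMIs none was higher, as Nog was no longer called. Extracellular matrix genes were lower in 10 and higher in 1 of 22 cases. Ttr, Rspo1 and Colec12 were among the 5 largest increases, and most of their UMIs came from the 6 and 5 control cells described above, all of which had Otx2 (for Colec12, 59 of 74 and 141 of 158 UMIs). Rspo1 had no UMI in Otx1-only cells. DESeq2 did not call Rspo1, Plxna4 or Lhx1.

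A split by Gsc gave a related picture. Of 11565 genes, 232 were higher (2.01%) and 276 lower (2.39%) in Gsc-detected cells, with DESeq2 calling 19 and 40. Both splits use the same cells, and cells with Otx2 more often had Gsc. Wnt4 (53.3 and 87.0 against 24.7 and 34.0 CPM), Rspo2 (30.4 and 33.0 against 9.67 and 13.8 CPM) and Cyp26c1 (12.6 and 15.0 against 7.25 and 5.42 CPM) were higher. Of 10 dorsal patterning genes 6 were lower, including Dlx5 (27.1 and 25.8 against 64.4 and 74.4 CPM), Msx1 and Bmp4 (5.38 and 10.6 against 30.5 and 54.4 CPM), and 1 was higher, Rspo2. The levels of Lhx1, a LIM homeobox gene, differed in size between libraries (5.55 against 4.28 CPM in control 1 and 15.5 against 2.92 CPM in control 2). Lhx1, Dlk1, 1700120C14Rik and Colec12 did not pass with DESeq2. Without the 6 and 5 cells described above, the log2 change of Colec12 was 0.76 in place of -3.06.

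The few Otx-positive cells of cKO were then compared with those of control. The labels do not say which exons are floxed, and 3′ UMIs outside them do not check the deletion. Tbx3 was at 28.7 and 37.9 CPM in cKO and 67.8 and 63.9 CPM in control Otx-positive cells (log2 change -0.87 ± 0.16, adjusted p = 0.00948). Tbx2 was at 74.9 and 84.2 CPM against 95.3 and 98.5 CPM and was not called in these cells (adjusted p = 0.428). In all otic-gate cells Tbx3 was lower by 1.54 and Tbx2 by 0.32 on the log2 scale, both called.

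Of the 20 genes with the largest increases in control, 17 were lower and none higher in cKO Otx-positive cells, where 2.92% of all genes were lower. These genes were chosen for high levels in the same control sums that serve as reference here, which favours a fall, so nothing is read from the count. Otx1 UMIs were at 44.1 and 54.1 CPM and Otx2 at 84.1 and 42.5 CPM in cKO. Only 3 and 6 cells held both, and these values are a description since the gate uses them. In cKO 1, 55 Otx2 UMIs came from the 3 cells with Ttr, Rspo1 and Colec12 UMIs. With such cells left out, Otx2 was at 32.3 and 39.8 CPM in cKO and 84.3 and 107 CPM in control. A Gsc UMI was found in 0 of 21 and 3 of 28 cells and a Vmo1 UMI in 0 and 1. Gsc was at 0 and 3.86 CPM and Vmo1 at 0 and 0.773 CPM. Six2 was at 63.6 and 68.8 CPM against 88.0 and 114 CPM in control, did not pass (adjusted p = 0.0990), and a Six2 UMI was in 81.0% and 85.7% of these cells. Oc90, also a gate gene, was at 39.0 and 103 CPM against 578 and 981 CPM.

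Across 11693 genes, 395 were higher (3.38%) and 342 lower (2.92%) in cKO Otx-positive cells by edgeR, which here rests on 21 and 28 cells. It recovered 58.3% of simulated 2-fold changes and 81.8% of 4-fold changes. The simulation gave every gene the same relative spread between libraries and did not draw single cells, so recovery in the real counts was not measured. Without control 1 or control 2 the number higher was 222 or 183. Capn6 was at 5.13 and 7.73 CPM against 107 and 135 CPM (log2 change -4.08 ± 0.27, adjusted p = 1.3e-05), and Cnmd at 8.21 and 10.8 against 121 and 159 CPM (-3.75 ± 0.26). Wnt4 was at 5.13 and 0 CPM against 39.7 and 63.3 CPM (adjusted p = 0.00209 by edgeR and 0.217 by DESeq2). Cyp26a1 was at 16.4 and 15.5 CPM against 49.2 and 44.0 CPM, a fall of 1.46 on the log2 scale that passed the test. Tnni1, the slow troponin I gene, had no UMI in cKO and was at least 7.61-fold higher in control. Vmo1 and Epha3 had 1 UMI each in the cKO cells, giving control-to-cKO ratios of 48.7 (exact 95% interval 8.71 to 1.93e+03) and 45.1 (8.06 to 1.79e+03). Cyp26c1, with 1 UMI as well, had a ratio of 23.5 (4.18 to 934), and DESeq2 gave it an adjusted p of 0.0562. The calls of Rspo2 and Gnao1 were also lost with DESeq2 (adjusted p = 0.0973 and 0.0609) and without control 2 (0.0682 and 0.0625), and that of Rspo2 also without cKO 2 (0.197).

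Hedgehog pathway genes were lower in 5 of 11 cases and none was higher, with a median log2 change of -0.88 against -0.01 for all genes. Ptch1 was at 7.18 and 14.7 CPM against 40.3 and 41.5 CPM (-1.74 ± 0.25, adjusted p = 0.00191). Gli1 and Hhip had no UMI in the cKO cells and were at least 6.03-fold and 4.15-fold higher in control. Smo was at 35.9 and 47.9 CPM against 49.4 and 56.3 CPM and was not called. In the other otic-gate cells 6 of 12 were also lower in cKO and none higher. There 16.7% of all genes were lower and 19% higher, against 2.92% and 3.38% in Otx-positive cells. The counts in Otx-positive cells were the same without the cells that held Ttr, Rspo1 and Colec12 UMIs.

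Some genes of neurogenesis and Notch signalling were higher. Neurog1 was at 14.4 and 28.6 CPM in cKO and 0.618 and 2.05 CPM in control Otx-positive cells (log2 change 3.99 ± 0.49, adjusted p = 7.3e-04). The Notch ligand Dll1 was at 5.13 and 11.6 against 0.971 and 1.30 CPM, Lfng at 33.9 and 41.0 against 8.83 and 6.33 CPM, and Hes1 at 157 and 81.2 against 47.1 and 43.1 CPM. Of 13 neurogenic genes 5 were higher and 1, Dcx, lower, and of 16 Notch genes 5 were higher and Hey2 lower, while 7 and 10 were not called. In the other otic-gate cells 8 of 19 neurogenic and 8 of 18 Notch genes were also higher in cKO, Neurog1 among them (1.37 ± 0.23). Of all genes 19% were higher there, against 3.38% in Otx-positive cells. Gate cells may hold at most 2 Neurod1 UMIs, which limits neuroblasts among them.

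The largest increase was that of the chemokine Cxcl12, at 159 and 119 CPM against 5.03 and 7.17 CPM (log2 change 4.55 ± 0.21, adjusted p = 6.9e-07), followed by Fgf3 (16.4 and 11.6 against 0.795 and 0.279 CPM), the potassium channel subunit gene Kcns3 and the kinase gene Dapk2. Without control 2 the adjusted p of Fgf3 was 0.0573. In the other otic-gate cells Cxcl12 was at 83.9 and 63.4 CPM in cKO and 9.14 and 10.1 CPM in control, so it was also higher there (3.09 ± 0.14), as were Kcns3 (4.29 ± 0.23), Fgf3 (1.88 ± 0.21) and Dapk2 (1.52 ± 0.10). In Otx-positive cells 8 of 18 G2 and M phase genes were higher in cKO and none lower, with a median log2 change of 0.57. Without the cells that held Ttr, Rspo1 and Colec12 UMIs 13 were higher. Mki67 (136 and 235 against 210 and 190 CPM) was not called. Of 18 S phase genes 0 were higher and 1 lower (median -0.118). In the other otic-gate cells 7 of 18 G2 and M phase genes were higher and 2 lower, and 10 of 18 S phase genes higher and 0 lower. There 19% of all genes were higher and 16.7% lower. Of 22 WNT genes in Otx-positive cells 6 were higher, including Sp5 (11.3 and 23.2 against 1.94 and 1.58 CPM), and 3 were lower. Without the cells that held Ttr, Rspo1 and Colec12 UMIs 7 were higher and 5 lower, with Wnt7b and Rspo3 added to the latter. Msx1, Rspo1 and Colec12 in cKO 1 (82.1, 69.8 and 187 CPM) came mostly from 3 cells.

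Tsix was at 1.03 and 0 CPM in cKO and 17.5 and 12.01 CPM in control Otx-positive cells. Xist, which Tsix overlaps on the other strand of the X chromosome, was at 124 and 0 CPM in cKO and 362 and 254 CPM in control. In all otic-gate cells Tsix was at 5.83 CPM in cKO 1 and 0.374 CPM in cKO 2, so the spread between the cKO libraries includes a difference in these genes. The labels give no sex of the embryos, and the part of sex in the genotype comparisons was not tested.

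Whether the marker genes of these cells fell in the whole otic gate was compared over all 4 libraries. The gate as a whole had 2908 genes higher (19.2%) and 2531 lower (16.7%) in cKO, and the other otic-gate cells 2825 (19%) and 2487 (16.7%). Of the 20 genes with the largest increases in Otx-positive cells, 18 were lower in the whole gate, a count that uses the same control cells as the choice of genes, and Rspo2 and Mecom were not called. The call of Cyp26a1 was lost without either control library and with DESeq2 (adjusted p = 0.245), and those of Ntrk2 and Crym without control 2 (0.0563 and 0.0601). In the other otic-gate cells, which exclude the Otx-positive ones, the same genes divided, with 10 lower, 2 higher, 7 not called and Ermn below the filter. Among the 10 were Ttr, Capn6, Ehbp1, Wnt4, Zfp385b, Epha3, Cnmd, Car13 and Tnni1, with log2 changes from -0.37 (Ehbp1) to -2.47 (Ttr). Without control 2 the calls of Capn6, Ehbp1, Wnt4, Zfp385b, Epha3 and Car13 were lost, at adjusted p of 0.0668 (Wnt4) to 0.151 (Zfp385b), and without control 1 those of Ehbp1, Wnt4 and Car13 (0.0594 to 0.0994). Rspo2 was higher there, at 4.05 and 3.11 CPM against 1.01 and 1.504 CPM, as was Crym (0.63 ± 0.09). These comparisons share their libraries and are not independent.

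A fit with an interaction term, chosen after seeing the data, tested whether the difference between Otx-positive and other otic-gate cells itself changed with genotype. Of 14313 genes, 196 had a higher and 229 a lower log2 difference in cKO than in control. Of 33 genes, the 30 named ones with Gsc, Six2 and Vmo1, 17 were called. They were chosen for a large difference in control, which is one side of this test, so a smaller difference in cKO is favoured by the choice. In control, Capn6 differed by 3.63 and 3.54 in log2(CPM + 1) between Otx-positive and other otic-gate cells, and in cKO by -0.0023 and 0.47. Ehbp1 kept much of its difference, 3.51 and 3.38 in control and 2.09 and 2.88 in cKO. Ntrk2 and Mecom were not called, with differences of 2.89 and 2.29 for Ntrk2 in control and 1.98 and 2.76 in cKO. Gbx2 and Wnt6 were low in Otx-positive cells in all 4 libraries, with differences of -3.35 to -4.28 for Gbx2.

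**Figure D5:**
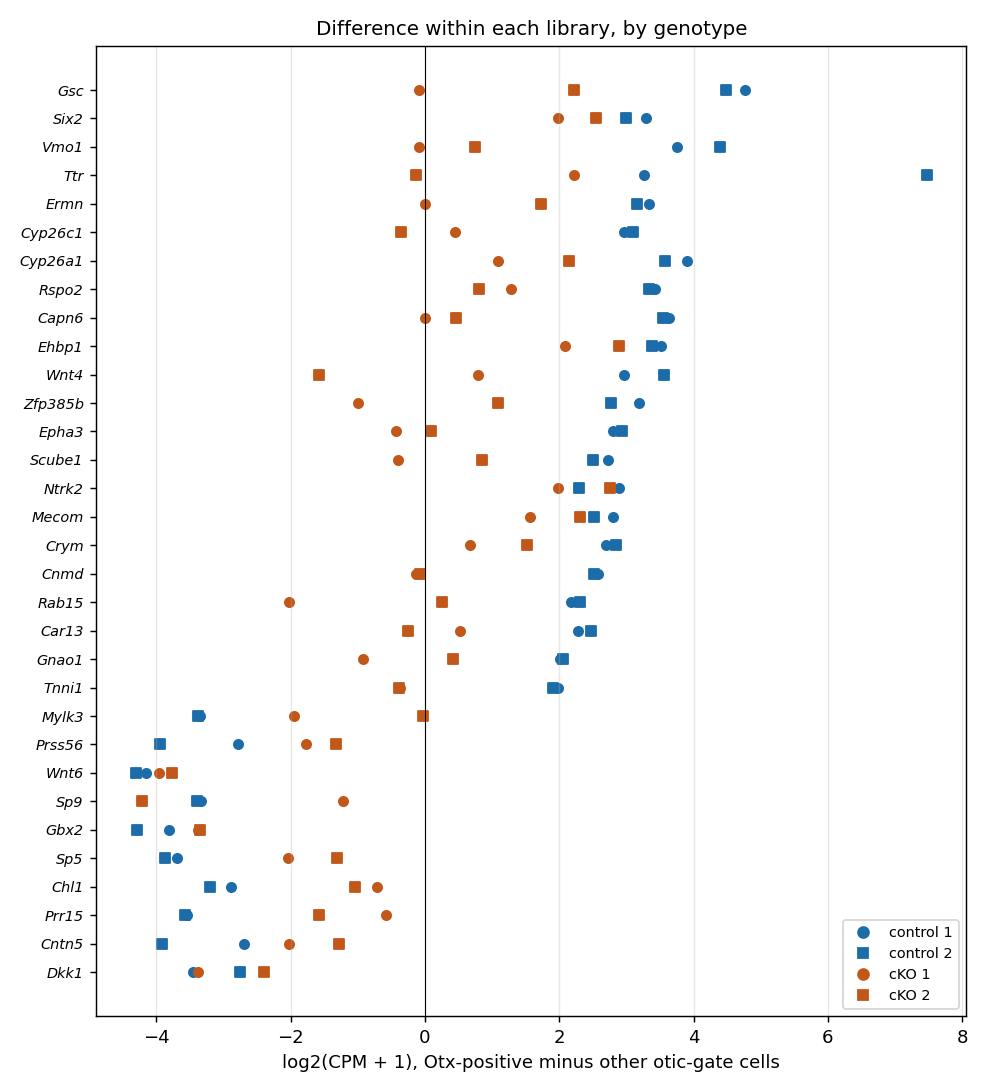
Difference in log2(CPM + 1) between Otx-positive and other otic-gate cells within each library (horizontal axis) for Gsc, Six2, Vmo1 and 29 of the 30 named genes; blue is control, orange cKO, circles library 1 and squares library 2. The control points of Capn6, Cnmd and Wnt4 lie near 2.5 to 3.6 and their cKO points near or below 1, while Ehbp1, Ntrk2, Mecom, Gbx2 and Wnt6 lie nearer together.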

How the data were processed

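Deposited UMI counts per gene and cell of 4 libraries were used. Per the file headers, the authors' matrices were written by Cell Ranger 6.0.1, and per the submitters' processing notes the tools were FastQC 0.11.4, Seurat 4.1.0 and an earlier Cell Ranger (3.1.0), with build mm10. Cells were filtered and gated by raw counts as stated above, with no clustering; Scrublet scores marked cells for an alternative only, since its automatic calls were 0 to 5 cells per library. The members, gene lists and named genes were chosen with earlier results of these data known. UMI counts were summed per library and cell group and tested with edgeR 4.0.16 (TMM, filterByExpr, prior count 1, quasi-likelihood, Benjamini-Hochberg over all genes, adjusted p under 0.05). Comparisons within control used the library as block, since both sums came from it; genotype comparisons had none. SE is the log2 change divided by the square root of F. CPM divides by all UMIs of the sum. Named genes were the 20 largest increases and 10 largest decreases of the control comparison and the 5 largest each way in others, called, changed the same way in every library and at 10 CPM or more in the higher group, up to 4 per list, and Tbx2, Tbx3 and the markers. Some genes are counted but not reported here by name. Further list members were named after their values were seen. On simulated counts the comparison of Otx-positive with other otic-gate cells in control recovered 87.8% of 2-fold and 98.0% of 4-fold changes. These counts too had the same relative spread for every gene. Of 32285 gene identifiers, 99.85% were found in GENCODE vM21. Alternatives were DESeq2 1.42.0, other size factors, filters, gates, thinning, doublet removal and leaving out libraries.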

Additional observations from a re-analysis of the deposited data

Results flagged for a closer look

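For 17 genes the difference between Otx-positive and other otic-gate cells differed between genotypes by the edgeR interaction test, and each value below is the log2 change of that difference, cKO minus control. The genes were chosen for a large difference in control, which favours a smaller one in cKO. It was smaller in cKO for the retinoic acid enzymes Cyp26c1 (-4.38) and Cyp26a1 (-2.43), the WNT genes Wnt4 (-3.58) and Rspo2 (-2.93), the receptor gene Epha3 (-3.69), and for Capn6 (-3.43), Rab15 (-3.07), Cnmd (-2.74), Zfp385b (-2.66), Scube1 (-2.57), Car13 (-2.46), Crym (-1.64), Six2 (-0.92) and Ehbp1 (-0.88). Of these, Cyp26c1 and Epha3 had 1 UMI each in all cKO Otx-positive cells, and Wnt4, Rab15 and Zfp385b had none in 1 of the cKO libraries, so their values are imprecise. For genes low in control Otx-positive cells the value was positive: Mylk3 (4.62), Prr15 (2.92) and Sp5 (2.70). Mylk3 was at 0 and 3.09 CPM in cKO Otx-positive cells, and in the other otic-gate cells it was at 11.9 and 11.3 CPM in control and 2.86 and 3.17 CPM in cKO, so part of its change came from the other cells. Without the cells that held Ttr, Rspo1 and Colec12 UMIs Mylk3 had an adjusted p of 0.0545, and Wnt4 moved to -5.67. Each cKO library held 21 or 28 Otx-positive cells. Gsc (-1.07 ± 4.26, adjusted p = 0.946) and Vmo1 (-3.65 ± 1.66, adjusted p = 0.328) did not pass, and their cKO levels were also at or near 0 UMIs.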

How the results depend on the processing

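The control share of 19.98% became 24.0% with a threshold of 1 Otx UMI, 15.9% with 4, 17.6% without Oc90 in the gate and 14.5% with cells thinned to 10000 UMIs; the cKO share of 2.43% became 6.45%, 1.23%, 2.55% and 1.29%. Leaving out single libraries gave 18.7 to 21.3% and 2.13 to 2.72%. The 1336 higher and 1678 lower genes of the comparison with other otic-gate cells in control became 455 and 648 with thinned cells, 376 and 501 with DESeq2 and, with 1 control library left and the spread taken from the cKO sums of other otic-gate cells, 195 to 239 and 271 to 407. DESeq2 called 39 and 65 in the Otx2 split, 19 and 40 in the Gsc split, and 186, 1598 and 1484 lower in cKO within Otx-positive cells, all otic-gate cells and the other otic-gate cells. Without a filter on low counts 648 were lower within Otx-positive cells. Leaving out single libraries gave 183 to 429 higher and 232 to 376 lower there, 1622 to 2466 and 1214 to 2259 in all otic-gate cells, and 1516 to 2390 and 1151 to 2332 in the other otic-gate cells.

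Replicate numbers did not pair the libraries: deviations of same-numbered libraries correlated by 0.005 (all otic-gate), 0.002 (others) and -0.049 (Otx-positive cells). With the number as replicate block, 486 genes were higher and 463 lower in cKO Otx-positive cells, 3051 and 2708 in all otic-gate cells and 2982 and 2648 in the others. With no replicate block the control comparisons called 524 and 791, 83 and 122 (Otx2 split) and 29 and 74 (Gsc split).

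Of the 30 named genes and 3 markers in that control comparison, 427 of 428 alternative values kept direction and call; the exception was Ttr (-0.63) without the cells that held Ttr, Rspo1 and Colec12 UMIs, where Colec12 in the Gsc split also turned (0.76). The depth of 21 and 28 cKO cells limits what those comparisons can show.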
